A study of Mus musculus with 6 samples.

Results

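Genes that are switched on by beta-catenin and that in turn restrain or tune Wnt signalling were followed in the kidneys of mouse embryos that lack Fz8 alone or Fz4 and Fz8 together. The members were 10 genes listed by name for this role: Axin2, Lef1, Tcf7, Nkd1, Sp5, Lgr5, Rnf43, Znrf3, Tnfrsf19 and Bambi. No cut on their values was used, but earlier results of these data were known when they were chosen. Probe sets annotated to a single member were found for 9 of the 10, and there were 18 of them among 45037 tested. Tcf7, a partner of beta-catenin on DNA like Lef1, matched no probe set annotated to it alone, so no value is given for it. The 9 genes stand among 18193 genes measured.

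When a Wnt ligand binds a Frizzled receptor and its LRP coreceptor, the complex that destroys beta-catenin is held back, and beta-catenin enters the nucleus and acts with LEF and TCF proteins. Several of the genes it turns on encode brakes on the same route, which is why their transcripts are widely read as a sign of pathway activity. In the developing kidney, Wnt signals through beta-catenin keep the ureteric tips branching, maintain nephron progenitors and start the conversion of progenitors into nephrons.

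The data were 6 arrays of whole kidneys at E13.5 (days of embryonic development), with 3 biological replicates in each of 2 genotypes. The Fz8-null kidneys were Fz4+/+Fz8-/- (arrays C1, C2 and C3), and the double-null kidneys were Fz4-/-Fz8-/- (arrays M1, M2 and M3). All embryos thus lacked Fz8, and all were on a hybrid background of C57BL/6 with 129X1/SvJ and with 129S1/Sv. Neither the making of the alleles nor the number of embryos behind an array is stated in the labels, and the p-values measure the spread between these samples.

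Values are log2 intensities, so a difference of 1 is a 2-fold change. Array medians lay between 6.02 and 6.14, and precision is limited by the number of arrays. Fzd4, which encodes Fz4, checked the labels: it read 10.74, 10.86 and 10.93 in C1, C2 and C3 and 5.29, 4.96 and 3.89 in M1, M2 and M3 (probe set 1434756_at; difference -6.13, SE 0.35, limma adjusted p = 0.00318). Fzd8 lay near background in both groups, at 3.98 ± 0.42 and 3.69 ± 0.18 (SD, n = 3 each). Near background means at or below a log2 value of 5.59, the 95th percentile of 71 olfactory and vomeronasal receptor genes. Of the kidney genes Six2, Wt1, Foxd1, Gata3 and Hoxb7, all except Hoxb7 (4.11 to 4.55) lay above it on average. In all, 5 of 18193 genes passed an adjusted p of 0.05, which is 0.0275%.

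No member passed that threshold (0 of 9 genes, 0 of 18 probe sets). The smallest adjusted p among members was 0.314, for Axin2. At an unadjusted p under 0.05 limma gave 1 of 9 members, Axin2, beside 15.3% of all genes. Axin2 was also the sole member whose groups did not overlap: every double-null array lay below every Fz8-null array. Among all genes 12.2% were separated in this direction and 6.68% in the other, so 1 of 9 members lower and 0 higher is near the background. Of the 9 members 7 lay lower and 2 higher in double-null kidneys, where 58.1% of all genes lay lower. Their median difference was -0.18, where all genes had -0.061 and the 11174 genes averaging 6 or more had -0.15.

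**Figure D1:**
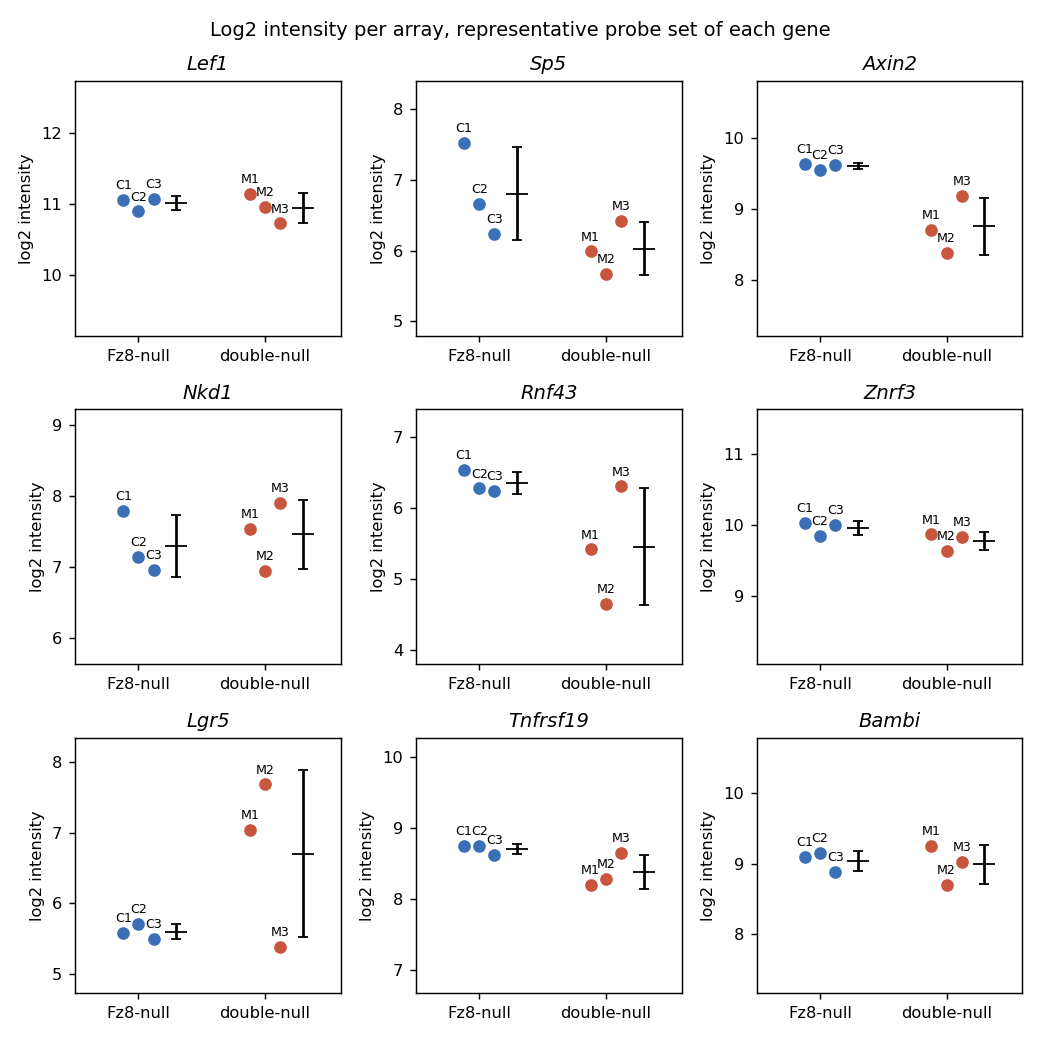
Log2 intensity (vertical axes, each spanning 3.6 log2 units) of the representative probe set of each of the 9 measured members in the 3 Fz8-null arrays (blue) and the 3 double-null arrays (red). Black bars give the mean and SD of 3 arrays. Axin2 is the panel in which the groups do not overlap, and in those of Lgr5 and Rnf43 M3 stays close to the Fz8-null arrays while M1 and M2 depart.

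The promoters of the members are shown first, because LEF and TCF proteins recognise a short core that can be searched for in them. RefSeq windows (build GRCm38.p6) were at hand for 7 of the 10 genes, which had 13 windows in all. Those of Lef1 overlap in part, and Lgr5, Znrf3 and Bambi matched none. Only the 250 bases before each start were read. The core was searched as CTTTGA or CTTTGT on both strands, and separately as CTTTGAT, which contains the first of these. One or more matches to CTTTGA or CTTTGT were found in windows of 3 of the 7 genes (Sp5, Lef1 and Tnfrsf19), in 3 of 13 windows, where 30.8% of all genes and 27.6% of all 32851 windows hold one. CTTTGAT was found for 2 of the 7 genes, Sp5 and Tnfrsf19, in 2 of 13 windows, where 3.72% of all genes and 3.21% of all windows hold it. These are matches of letters and not measured binding.

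Sp5 had the most matches of any member window, 4, which begin 221, 212, 204 and 104 bases before its start, with the first of them on the opposite strand. Rnf43 had 0 matches in each of its 2 windows, and the upstream one is shown for contrast. The Sp5 window lies at chr2:70474673-70474922 (+ strand) and the Rnf43 window at chr11:87662837-87663086 (+ strand), and each ends on the base before the annotated gene begins. Capitals mark the matches.
Sp5: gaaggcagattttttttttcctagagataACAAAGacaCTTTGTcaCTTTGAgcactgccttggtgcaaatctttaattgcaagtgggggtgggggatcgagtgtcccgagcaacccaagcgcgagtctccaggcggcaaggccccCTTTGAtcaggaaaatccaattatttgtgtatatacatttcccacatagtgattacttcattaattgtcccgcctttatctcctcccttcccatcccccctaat
Rnf43: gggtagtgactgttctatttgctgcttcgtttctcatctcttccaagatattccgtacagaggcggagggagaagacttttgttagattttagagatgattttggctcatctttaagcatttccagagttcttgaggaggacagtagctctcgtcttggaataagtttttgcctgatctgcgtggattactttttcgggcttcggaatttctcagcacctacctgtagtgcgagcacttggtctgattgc

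The Lef1 match window is the last of its 4 starts, with 3 matches that begin 180, 146 and 120 bases before the start, all on the opposite strand. That window (from chr3:131156044) lies inside the annotated gene, which begins at 131110297. The windows of the other 3 Lef1 starts, and those of Axin2, Nkd1 and Tcf7, had 0 matches. The windows of Axin2 (from chr11:108920099) and Nkd1 (from chr8:88527383) also lie inside their genes, which begin at 108917828 and 88521342. The bases before those gene beginnings were not read. Tnfrsf19 had 1 match, 201 bases before its second start, again inside the annotated gene.

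Lef1 encodes the DNA-binding partner through which beta-catenin acts, and it is itself a target. It read 11.06, 10.90 and 11.08 in C1, C2 and C3 and 11.15, 10.96 and 10.73 in M1, M2 and M3 (1454734_at). The groups overlapped, with the highest and the lowest value both in double-null kidneys. The difference was -0.066 (SE 0.15, 95% interval -0.43 to 0.30, limma adjusted p = 0.836), and its sign turned with array weights (0.137) and without M3 (0.044). A dimmer Lef1 probe set, 1421299_a_at, read 5.07, 5.23 and 5.35 in the Fz8-null arrays and 4.46, 4.21 and 5.06 in the double-null arrays. Its groups did not overlap, with M3 just under C1, its values lay near background, and the difference was -0.64 (SE 0.24, limma adjusted p = 0.322). The mean of both probe sets gave -0.35. Among all probe sets 11.3% were separated in this direction.

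Sp5 encodes a zinc-finger transcription factor induced by Wnt signals in many embryonic tissues. It read 7.52, 6.66 and 6.24 in C1, C2 and C3 and 5.99, 5.67 and 6.42 in M1, M2 and M3 (1422914_at). M1 and M2 lay below every Fz8-null array and M3 did not, and C1 stood above all others. The means were 6.80 ± 0.65 and 6.03 ± 0.38 (SD, n = 3 each), a difference of -0.78 (SE 0.35, 95% interval -1.61 to 0.05, limma adjusted p = 0.333). Without C1 the difference was -0.42.

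Axin2 encodes a scaffold of the beta-catenin destruction complex and is the standard feedback brake of the pathway. It read 9.63, 9.55 and 9.62 in C1, C2 and C3 and 8.70, 8.38 and 9.18 in M1, M2 and M3 (1436845_at). The Fz8-null arrays were close to each other and the double-null arrays were spread, with M3 nearest to them. The means were 9.60 ± 0.045 and 8.76 ± 0.40 (SD, n = 3 each), a difference of -0.84 (SE 0.21, 95% interval -1.34 to -0.35), which is 1.79-fold lower. It did not pass over all genes (limma adjusted p = 0.314), where its p ranked 252 of 18193. A lower difference than that of Axin2 was seen in 1.37% of all genes. The other Axin2 probe set, 1421341_at, lay near background at 4.55 ± 0.44 and 4.35 ± 0.20 (SD, n = 3 each; difference -0.20, SE 0.24). The mean of both probe sets gave -0.52.

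Nkd1 encodes a protein that binds Dishevelled and dampens Wnt signalling inside the cell. Its representative probe set read 7.79, 7.14 and 6.96 in C1, C2 and C3 and 7.53, 6.94 and 7.90 in M1, M2 and M3 (1429506_at). The groups overlapped, and the lowest and the highest array were both double-null. The difference was 0.16 (SE 0.31, 95% interval -0.57 to 0.89, limma adjusted p = 0.801), and it turned negative without C3 (-0.0066) and without M3 (-0.062). The other 3 Nkd1 probe sets stood at 0.10, 0.010 and -0.067.

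Rnf43 and Znrf3 encode membrane-bound ubiquitin ligases that remove Frizzled receptors from the cell surface. Rnf43 read 6.54, 6.28 and 6.25 in C1, C2 and C3 and 5.42, 4.65 and 6.31 in M1, M2 and M3 (1427008_at). M1 and M2 were below every Fz8-null array and M3 lay among them. The difference was -0.90 (SE 0.39, 95% interval -1.82 to 0.02, limma adjusted p = 0.328). Its double-null mean, 5.46, lay below the background limit, so the size of the difference is uncertain. Without M2 it was -0.50, and without M3 it was -1.32. Znrf3 read 10.03, 9.85 and 10.01 in C1, C2 and C3 and 9.87, 9.64 and 9.83 in M1, M2 and M3 (1435608_at). M1 alone overlapped the Fz8-null arrays, and the difference was -0.18 (SE 0.13, 95% interval -0.50 to 0.13, limma adjusted p = 0.484). A second Znrf3 probe set, 1437646_at, stood at -0.12 (SE 0.17). Whether Rnf43 and Znrf3 differ from each other in their response was not tested.

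Lgr5 encodes a receptor for R-spondins, which hold those ligases in check, and its probe sets disagreed. The brighter one, 1444519_at, read 5.58, 5.71 and 5.50 in C1, C2 and C3 and 7.04, 7.68 and 5.39 in M1, M2 and M3. M1 and M2 were far above and M3 below every Fz8-null array, whose levels sat at the edge of background. The difference was 1.11 (SE 0.53, 95% interval -0.16 to 2.37, limma adjusted p = 0.348), falling to 0.62 if M2 is left out and rising to 1.76 if M3 is. The second, 1450988_at, lay near background and pointed the other way, with 4.28, 4.73 and 4.65 in the Fz8-null arrays and 3.94, 3.89 and 4.53 in the double-null arrays (difference -0.43, SE 0.23, limma adjusted p = 0.353). The mean of both gave 0.34, so no direction for Lgr5 is given here.

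Tnfrsf19 encodes TROY, a receptor of the TNF receptor family reported as a beta-catenin target. It read 8.75, 8.75 and 8.62 in C1, C2 and C3 and 8.20, 8.29 and 8.65 in M1, M2 and M3 (1448147_at). M1 and M2 lay below every Fz8-null array and M3 lay within their range. The difference was -0.32 (SE 0.16, 95% interval -0.69 to 0.05, limma adjusted p = 0.350). The other 2 Tnfrsf19 probe sets lay near background, at -0.31 and -0.19. Bambi encodes a receptor-like protein without a kinase that damps TGF-beta and BMP signals. It read 9.09, 9.15 and 8.88 in C1, C2 and C3 and 9.25, 8.70 and 9.02 in M1, M2 and M3 (1423753_at). Its groups overlapped, with the highest and lowest values both double-null, and the difference was -0.054 (SE 0.18, 95% interval -0.47 to 0.36, limma adjusted p = 0.886), with a sign that turned under quantile normalization (0.058), equal array medians (0.0011) and array weights (0.128) and without C2 or M2 (0.0002 and 0.09).

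**Figure D2:**
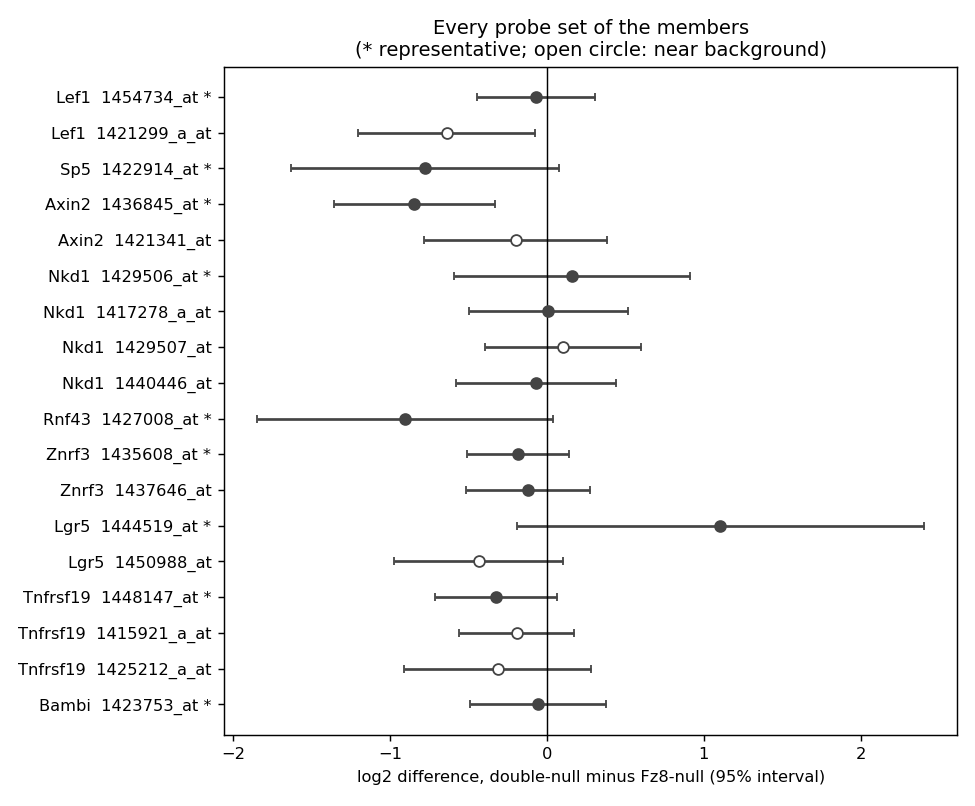
Log2 difference, double-null minus Fz8-null, of each of the 18 member probe sets (points) with limma's 95% interval. Asterisks mark the representative probe set and open circles the 6 probe sets near background. The 2 Lgr5 probe sets lie on opposite sides of 0, and the intervals of 1 Axin2 and 1 Lef1 probe set do not reach 0.

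Counted over probe sets, 14 of the 18 lay lower and 4 higher, where 55.6% of all probe sets lay lower. These 4 were 3 of Nkd1 and 1 of Lgr5. The groups did not overlap for 2 of the 18, the bright Axin2 and the dim Lef1 probe set, both lower, where 11.3% of all probe sets were separated in that direction. Probe sets of a gene are annotated to the same gene and are not replicates of each other. Whether they read the same transcripts was not tested. None of the members lies on chromosome 7, which carries Fzd4; they lie on chromosomes 2, 3, 8, 10, 11, 14 and 18.

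**Figure D3:**
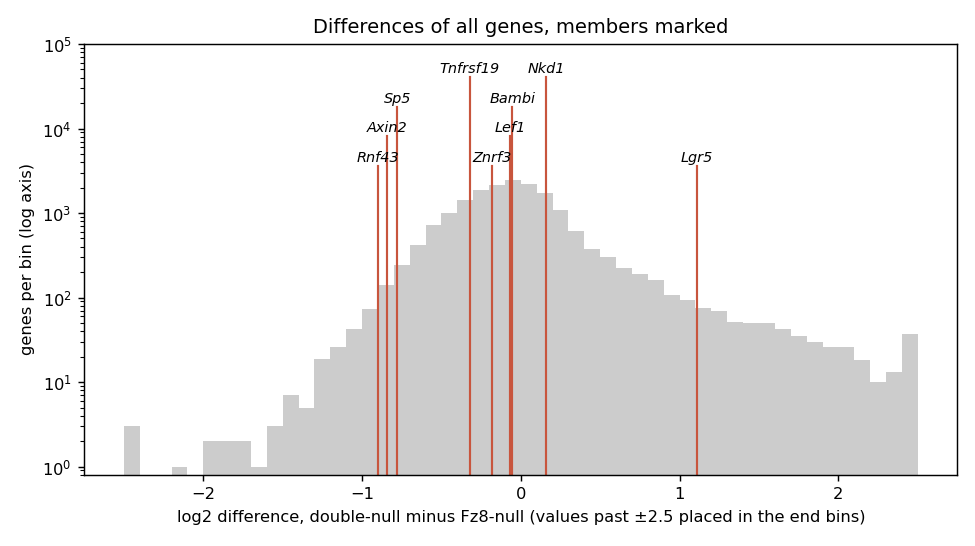
Histogram of the log2 difference, double-null minus Fz8-null, of all 18193 genes (grey; the count axis is logarithmic), with the 9 members as red lines. Rnf43, Axin2 and Sp5 lie in the lower tail, Lgr5 in the upper tail, and the other members within the bulk.

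The double-null arrays did not behave alike. M2 was the lowest of the 6 arrays for 6 of 9 members, as it was for 33.1% of all genes. Below every Fz8-null array lay 4 members in M1, 7 in M2 and 4 in M3, where 42.0%, 46.9% and 26.0% of all genes did so. For 8 of 9 members the SD was larger among double-null than among Fz8-null arrays, as for 69.8% of all genes. M3 bears on the calls: without it 3 of 9 members passed, Axin2 at -1.05 (limma adjusted p = 0.00893), Rnf43 at -1.32 (adjusted p = 0.0173, with M1 and M2 both below the background limit) and Lgr5 at 1.76 (adjusted p = 0.00641), but so did 18.1% of all genes. Without M3 the groups were separate for 4 members on the lower side and 1 on the higher side, beside 34.1% and 19.2% of all genes. With array weights 4 members passed (Axin2, Rnf43, Tnfrsf19 and Lgr5) beside 41.6% of all genes. These weights were 3.93, 0.476 and 0.211 for M1, M2 and M3, so the double-null side rested mostly on M1.

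Genes of some kidney cell types lay lower beside Axin2, where 58.1% of all genes lay lower. Ureteric tip genes lay lower for 14 of 15 measured, with a mean level of 8.77 to 8.82 in the Fz8-null arrays and 7.90 to 8.22 in the double-null arrays. Only 1 of them passed, just under the threshold (Vsnl1, -1.90, limma adjusted p = 0.049). Vsnl1 read 4.48, 4.68 and 5.04 in M1, M2 and M3, below the background limit, so the size of its difference is uncertain. Set against the Fz8-null mean, the tip genes of M1, M2 and M3 stood at -0.68, -0.90 and -0.58, and Axin2 stood at -0.89, -1.22 and -0.42. Not every member did so: in M1, Lef1, Nkd1, Bambi and Lgr5 stood at 0.139, 0.235, 0.206 and 1.441, and the other members lay lower. Nephron progenitor genes lay lower for 14 of 15, with levels of 9.37 to 9.40 and 8.72 to 8.99, and 0 passed. The lists of committing nephron epithelium and stroma were more evenly split. Of 15 committing nephron epithelium genes 8 lay lower and 7 higher, and of 15 stroma genes 9 lay lower and 6 higher, with 0 passing in either. In whole kidneys, fewer cells of a type and less RNA per cell cannot be told apart. Genes of the remaining lists lay in both directions. Liver genes lay higher for 10 of 10, with mean levels of 5.33 to 5.96 in Fz8-null arrays and 6.21, 8.84 and 9.15 in M1, M2 and M3, and 10 of 12 erythroid genes lay higher, at 6.80 in M1 but 9.02 and 9.13 in M2 and M3 against 7.16 to 7.33. Of these lists 3 liver and 4 erythroid genes lay near background, and in neither did a gene pass. Macrophage and leukocyte genes lay higher for 12 of 14 and genes of neurons and neural crest for 8 of 12, but not in M1. Against the Fz8-null mean, M1, M2 and M3 stood at -0.32, 0.68 and 0.72 for macrophage and leukocyte genes. For neurons and neural crest they stood at -0.15, 0.27 and 0.10. Skeletal muscle genes lay lower for 12 of 12, at -1.22, -0.55 and -0.15 in M1, M2 and M3 against the Fz8-null mean. The Fz8-null arrays were themselves spread for these genes, at -0.505, 0.675 and -0.17 in C1, C2 and C3. M3 thus lay within their range and M2 just below C1, and 0 of the 12 genes were separated. Near background lay 4 macrophage and leukocyte genes, 7 genes of neurons and neural crest and 2 skeletal muscle genes. Endothelial genes lay lower for 12 of 16, with a median difference of -0.37 beside -0.36 for nephron progenitor genes. Of the 16, 4 were separated lower and 0 passed. They stood at -0.28, -0.72 and 0.017 in M1, M2 and M3. Of 64 Affymetrix control probe sets 18 were higher in every double-null array and 2 lower, where 6.68% of genes were separated higher and 12.2% lower. The part of these in the members' values was not tested.

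**Figure D4:**
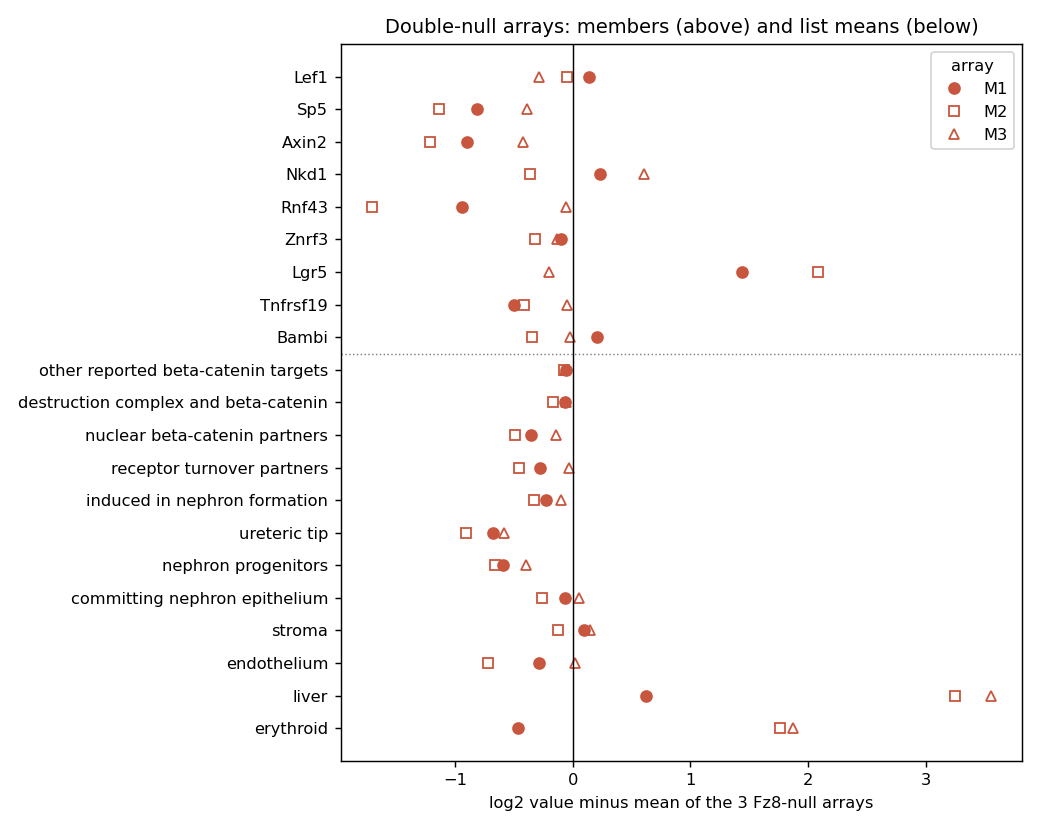
Log2 value of each double-null array minus the mean of the 3 Fz8-null arrays, for the 9 members (above the dotted line) and for the mean of each gene list (below it). M1 is a filled circle, M2 a square and M3 a triangle. M2 lies lowest for most members, and liver and erythroid genes stand high in M2 and M3.

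The rest of the pathway was read from 5 lists, which share a few genes such as Ccnd1, Btrc, Lgr4 and Rspo3. Their counts are to be read against all genes, of which 58.1% lay lower, 12.2% were separated lower, 6.68% were separated higher and 15.3% had an unadjusted p under 0.05. No gene of any of them passed over all genes in limma. Of the other 33 reported beta-catenin targets, 19 lay lower and 14 higher, with a median of -0.093, which was -0.029 without C1, -0.010 without M2 and -0.14 without M3, and 7 were separated lower and 3 higher. Of the 33, 10 lay near background, among them Lgr6 and Cdx1, which were separated lower, and Fosl1, which was separated higher. At an unadjusted p under 0.05 there were 6 of the 33 lower and 1 higher. Those of smallest p were Notum, which encodes an enzyme that inactivates Wnt ligands, and Tbx3, a transcription factor gene. Notum read 6.26, 6.48 and 6.23 in C1, C2 and C3 and 5.57, 5.26 and 5.92 in M1, M2 and M3, without overlap and with a double-null mean of 5.58 at the background limit (difference -0.74, SE 0.19, limma adjusted p = 0.314). Tbx3 stood at -0.60 (SE 0.18, limma adjusted p = 0.314).

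The 19 genes of beta-catenin and its destruction complex had a median of -0.087 (0.045 with array weights), with 13 lower and 6 higher and 1 separated lower. Ctnnb1, which encodes beta-catenin, stood at -0.022 (SE 0.13) and was added after its value was seen. Axin1, the constitutive relative of Axin2, read 7.39, 7.96 and 7.73 in the Fz8-null arrays and 6.70, 6.78 and 7.38 in the double-null arrays. Its groups were separate, with M3 just under C1 (difference -0.74, SE 0.23, limma adjusted p = 0.314). Csnk1e, a casein kinase gene, stood at -0.62 (SE 0.28, limma adjusted p = 0.333). At an unadjusted p under 0.05 there was 1 gene, lower.

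Among the 24 nuclear partners of beta-catenin 23 lay lower, with a median of -0.33, and 10 were separated lower, where 58.1% of all genes lay lower and 12.2% were separated lower. At an unadjusted p under 0.05 there were 6 genes, all lower, beside 15.3% of all genes in either direction. Pygo1, which encodes a coactivator recruited through BCL9, read 6.55, 6.08 and 6.15 in the Fz8-null arrays and 5.28, 5.55 and 5.62 in the double-null arrays, whose mean of 5.48 lay below the background limit (difference -0.78, SE 0.18, limma adjusted p = 0.314). Tle3, a Groucho-family corepressor gene, stood at -0.54 (SE 0.13, limma adjusted p = 0.314). The list holds activators and repressors of the same step, and the genes of smallest p include both kinds.

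The list of receptor turnover partners had a median of -0.23 over 16 genes, with 12 lower and 4 higher. It holds genes of receptors, R-spondins and Dishevelled, and also others such as Cby1, Usp6nl, Ccdc88c, Dact1 and Dact3. Of these 16, 3 were separated lower and 1 higher, 3 were lower at an unadjusted p under 0.05, and 3 lay near background. Lgr6, a relative of Lgr5, lay near background at -1.08 (SE 0.32), and Cby1, a beta-catenin antagonist gene, stood at -0.73 (SE 0.24; limma adjusted p = 0.314 for each). Genes of nephron induction, which beta-catenin drives in the kidney and which here include the ligand gene Wnt9b, had a median of -0.18 over 12 genes, with 9 lower and 4 of them separated. Fgf8, a growth factor gene of the first nephron epithelium, read 5.96, 6.74 and 6.17 in the Fz8-null arrays and 5.21, 5.35 and 5.57 in the double-null arrays, all of these at or below the background limit (difference -0.92, SE 0.22, limma adjusted p = 0.314). Wnt4, which drives the same step, stood at -0.47 (SE 0.18, limma adjusted p = 0.319). At an unadjusted p under 0.05 these were the 2 genes, both lower. With array weights 18 of 33, 3 of 19, 13 of 24, 9 of 16 and 3 of 12 genes of the 5 lists passed, in the order given, beside 41.6% of all genes. Without M3 there were 3, 2, 7, 5 and 1, beside 18.1% of all genes.

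The mean of the 9 members, each centred on its own mean, stood at 0.28, 0.061 and -0.030 in C1, C2 and C3 and at -0.032, -0.28 and -0.0010 in M1, M2 and M3. C1 was highest and M2 lowest in this profile. It includes the brighter Lgr5 probe set, which stood at 1.441, 2.085 and -0.204 in M1, M2 and M3 against the Fz8-null mean. A mean without Lgr5 was not taken, so the profile is not read for or against a difference between the genotypes. Over the 6 arrays the Pearson correlation of single members with the profile ran from 0.96 for Sp5 and 0.85 for Rnf43 down to 0.11 for Lef1 and -0.72 for Lgr5. These genes are themselves part of the mean. Among 7375 other genes with a mean of at least 6 and a range of at least 0.5, the 5 most like it were Dst (r = 0.9996), Ntsr1 (0.99), Limd1 (0.99), Ift88 (0.99) and 4931428F04Rik (0.99). All values come from the same 6 arrays normalized together, and with 6 points such correlations are a description. Dst read 11.42, 11.14 and 11.02 in the Fz8-null arrays and 11.04, 10.71 and 11.06 in the double-null arrays, with C1 highest and M2 lowest. The differences of these 5 genes lay between -0.53 and -0.26, and in each the groups overlapped.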

How the data were processed

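Whole kidneys were profiled on 1-colour Affymetrix MOE430.2 arrays, 3 per genotype. The deposited values are log2 probe-set intensities that the authors normalized with RMA, per the submitters' processing notes (its version is not given in the sources used here), and they were used unchanged. Of 45101 probe sets, 64 Affymetrix controls were set aside. The platform annotation gave 1 gene for 34945 of the other 45037, several for 932 and none for 9160. Each of 18193 genes was represented by its probe set of highest mean among those carrying that gene alone.

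Groups were compared with limma 3.58.1 under R 4.3.3 (lmFit, eBayes), two-sided, with Benjamini-Hochberg adjustment at 0.05, over all genes for representative probe sets and over all probe sets for the others. The fit was first tested on simulated data. Named genes are the members, Fzd4, Fzd8, in each pathway list the genes that passed or else the 2 of smallest p, and the 5 genes most like the members' mean. Members and lists were chosen with earlier results of these data known. Alternatives were a minimum mean of 6, quantile normalization, equal medians, trended robust moderation, array weights, a replicate block, the mean of all probe sets, ordinary least squares, and leaving out each array.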

Additional observations from a re-analysis of the deposited data

How the results depend on the processing

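Over 14 alternatives the differences of Axin2, Sp5, Znrf3 and Tnfrsf19 and, in the 13 that keep it, Rnf43 stayed negative, and that of Lgr5 stayed positive. Signs turned only for the members nearest to 0. Bambi stood at 0.058 with quantile normalization, 0.0011 with equal array medians and 0.128 with array weights, and between -0.184 and 0.09 when single arrays were left out. Lef1 stood at 0.137 with array weights and between -0.168 and 0.044 without single arrays, and Nkd1 between -0.062 and 0.42. Array weights gave 7576 genes passing, 4 of them members, while leaving out single arrays gave 2 to 3292 genes and 0 to 3 members. M3 had the lowest weight, 0.211, and M1 the highest, 3.93, while M2 (0.476) and C1 (0.492) were also weighted low. Among the 9 members, those whose groups did not overlap numbered 3 with the mean of all probe sets and 1 to 5 without single arrays. The 5 came without M3, where 34.1% of all genes were separated lower and 19.2% higher. For the other alternatives the share of all genes was not counted, so their counts are not read as a result about the members. Only 1 gene passed with the mean of all probe sets or with ordinary least squares. With the replicate block 3 genes passed, none of them a member, and a balanced block leaves the members' median of -0.184 as it is. That median was -0.085 with quantile normalization, -0.128 with equal medians, -0.081 with array weights, -0.276 with the mean of all probe sets and -0.241 to -0.114 without single arrays. The correlation between residuals was 0.17, -0.14 and 0.09 for arrays sharing a number, and C2 correlated best with M3 (0.25). With residuals centred within groups of 3 arrays, these values cannot decide whether the arrays are paired. The cause of the shifts between alternatives was not tested. With 3 arrays a group, the differences of Tnfrsf19 and Znrf3 did not pass in the main fit. Neither did the larger ones of Axin2, Rnf43, Sp5 and Lgr5, and 6 member probe sets lay near background.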

Other observations

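The brighter Lgr5 probe set lay above every Fz8-null array in M1 and M2 and below them in M3, and so did Trp63, a reported beta-catenin target that encodes a p53-family regulator of stratified epithelia. Trp63 read 6.42, 5.97 and 6.04 in C1, C2 and C3 and 7.05, 7.60 and 5.62 in M1, M2 and M3, a difference of 0.61 (SE 0.48, limma adjusted p = 0.515). Trp63 was chosen after its values were seen. Sp8, which encodes a close relative of the Sp5 protein, read 3.04 to 3.21 in the Fz8-null arrays and 3.36, 4.75 and 3.11 in M1, M2 and M3, near background, and it too was chosen after its values were seen.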
